A study of Mus musculus with 6 samples.

Results

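The genes described here encode the subunits of the mitochondrial respiratory chain and of ATP synthase, the protein complexes that turn the energy of nutrients into ATP. They were chosen by gene symbol: a probe set counted when the platform annotation paired it with exactly 1 symbol that starts with Nduf, Uqcr, Atp5, Cox4, Cox5, Cox6 or Cox7, or that is Sdha, Sdhb, Sdhc, Sdhd or Cyc1, and Cox7a1 was left out. This took 173 probe sets of 87 genes, out of 18194 gene symbols on the array. By complex there were 44 genes for complex I, 4 for complex II, 9 for complex III, 13 for complex IV and 17 for complex V. The prefix Nduf also takes in 8 assembly factors (Ndufaf genes), which build complex I without staying in it.

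RNA came from epididymal white fat, the fat pad beside the epididymis, of male mice aged 10 weeks on a C57BL6;SJL background. The 3 MUT mice carried aP2-nSREBP1c, a transgene in which the aP2 (Fabp4) promoter, active in fat cells, drives nuclear SREBP-1c, which switches on genes of lipid synthesis; the labels describe them as lipodystrophic and spell the strain in several ways (aP2-nSrebp1c Tg, aP2-nSrebp1 Tg and aP2-SREBP1c Tg). The 3 WT mice were litter-matched and carried no transgene. Each mouse had its own Affymetrix MOE430v2.0 array, and every value is a MAS5 signal, a linear brightness per probe set.

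Complex I (NADH dehydrogenase) and complex II (succinate dehydrogenase) pass electrons from NADH and succinate to ubiquinone, complex III (cytochrome bc1) passes them on to cytochrome c, and complex IV (cytochrome c oxidase) gives them to oxygen. Complexes I, III and IV pump protons while they do so, and complex V (ATP synthase) lets the protons flow back and makes ATP. Most subunits are encoded in the nucleus, as all the genes here are, and a smaller number in mitochondrial DNA. White fat cells hold few mitochondria beside their lipid droplet, whereas brown fat cells are rich in them and can run the chain uncoupled from ATP synthesis through Ucp1.

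The array of MUT replicate 2 stood apart. Its ratio of 3′ to 5′ signal, which rises when RNA is broken, was 122 for beta-actin, where the other 5 arrays had 1.11 to 1.81, and 55.9 for Gapdh, where they had 0.772 to 1.22. The Pcx control divided the arrays in another way, with ratios of 3.06 in WT replicate 3, 3.10 in MUT replicate 1 and 14.1 in MUT replicate 2, and of 40.6 to 52.0 in WT replicates 1 and 2 and MUT replicate 3. The differences are therefore given with all 6 arrays and without MUT replicate 2, a comparison of 3 WT with 2 MUT mice that was chosen with earlier results of these data known. The part of RNA quality in the differences was not tested beyond these values.

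With all 6 arrays, no respiratory chain gene passed the threshold between MUT and WT fat, and without MUT replicate 2 there were 5 that were higher in MUT and 0 that were lower. The differences were small: without MUT replicate 2 they ran from −0.57 for Ndufb3, an accessory subunit of complex I, to 0.89 for Ndufaf4, a complex I assembly factor. Of the 87 genes, 86 were bright enough to be tested; Cox7b2, a form of a complex IV subunit known from testis, was not, with signals of 2 to 15.5. Differences are log2 values of MUT minus WT on the scale of log2(signal + 16), where 1 is a doubling, and the test was limma's with Benjamini-Hochberg adjustment over all 27022 probe sets tested. Over all 13111 genes tested, 2.23% were called higher and 1.54% lower with 6 arrays, and 8.04% and 7.33% without MUT replicate 2. The 5 called genes were 5.81% of the chain, which is below the share of all genes called higher.

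The absence of calls with 6 arrays does not show that the levels were alike. The 95% confidence interval of the difference lay within a 2-fold change in either direction for 55 of 86 genes with 6 arrays. Without MUT replicate 2 it did so for 79 of 86 (91.9%), against 68.8% of all genes tested. The 7 genes whose interval reached past 2-fold in that comparison were Ndufaf2, Ndufaf4, Ndufb1, Ndufb4, Uqcr10, Cox6a2 and Atp5md, named after their values were seen. None of the 86 fitted differences was over 2-fold without MUT replicate 2, compared with 9.96% of all genes. With 6 arrays those of Ndufaf4 (1.03) and Ndufa4l2 (−1.02) were. Without MUT replicate 2 the distance from an estimate to the end of its interval had a median of 0.36 for the chain and of 0.48 for all genes. The chain was thus also measured more tightly than most genes.

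**Figure D1:**
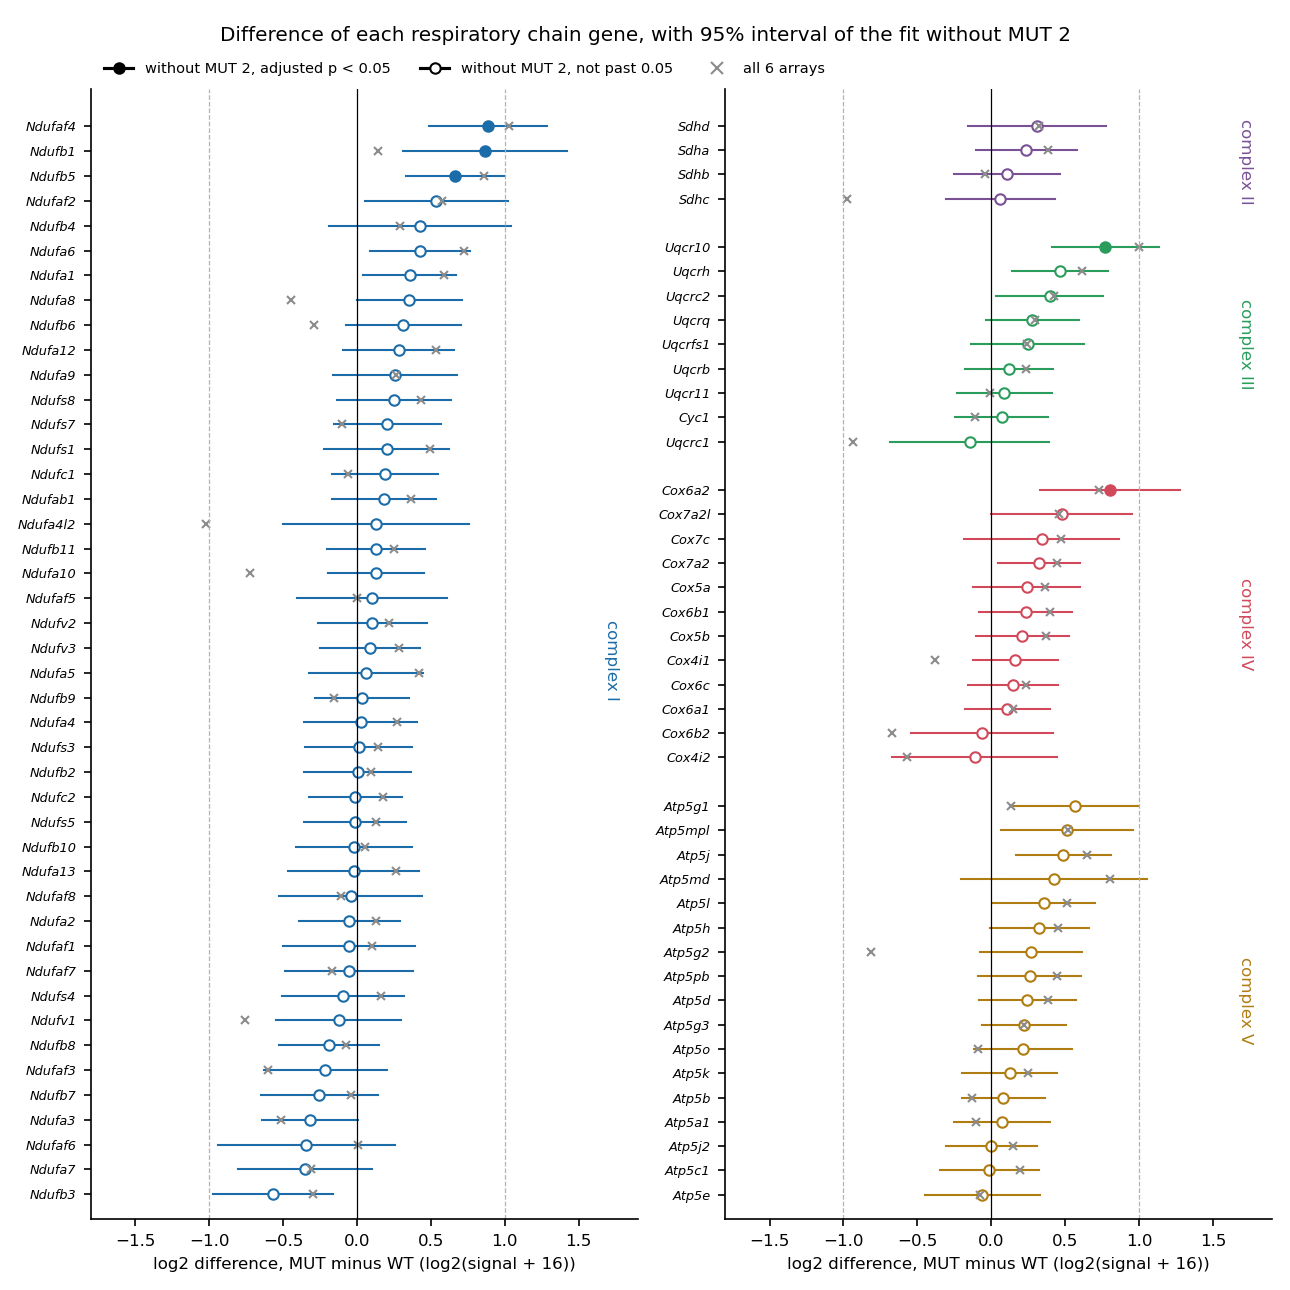
Difference between MUT and WT in each of the 86 tested respiratory chain genes, in log2(signal + 16) (x axis), by complex (y axis). Circles with lines are the limma estimate without MUT replicate 2 and its 95% interval (3 WT, 2 MUT), filled where the adjusted p was under 0.05; crosses are the estimate from all 6 arrays, and dashed lines mark 2-fold. The 5 filled circles lie between 0.66 and 0.89, and the other circles lie between −0.57 and 0.57.

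The direction leaned towards higher levels in MUT. The difference was positive for 56 of 86 genes (65.1%, against 46.7% of all genes) with 6 arrays and for 64 (74.4%, against 52.2%) without MUT replicate 2. The median difference was 0.19 with 6 arrays, where the median of all genes was −0.04, and 0.14 without MUT replicate 2, where it was 0.02. After quantile normalization, which gives every array the same distribution of values, the medians were 0.12 for the chain and 0.08 for all genes with 6 arrays, and 0.06 and −0.01 without MUT replicate 2. Relative to all genes the median of the chain thus lay 0.23 higher with 6 arrays and 0.11 higher without MUT replicate 2, and 0.04 and 0.07 higher after quantile normalization. An unadjusted p under 0.05 was reached by 14 of 86 genes with 6 arrays, all of them higher in MUT, or 16.3% against 18.4% of all genes, and by 17 (19.8%, against 29.3%) without MUT replicate 2.

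Every MUT array lay above every WT array for 23 of 86 genes (26.7%, against 14.1% of all genes), and every MUT array lay below for 1, Ndufa3 (1.16%, against 16.3% of all genes). Without MUT replicate 2 the groups did not overlap for 30 genes with MUT above (34.9%, against 24.1%) and for 2 with MUT below, Ndufa3 and Ndufb3 (2.33%, against 22.4%). Ndufa3 and Ndufb3 are small accessory subunits of complex I, named because they were the exceptions.

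The size of this lean differed between the MUT arrays. Relative to the WT mean, the median over the 86 genes was 0.01 in MUT replicate 1, 0.41 in replicate 2 and 0.29 in replicate 3, and it ran from −0.05 to 0.09 in the WT arrays. The median of all genes on the same MUT arrays was −0.11, −0.12 and 0.16. Relative to it the chain lay 0.12 higher in MUT replicate 1, 0.53 in replicate 2 and 0.13 in replicate 3, so that replicates 1 and 3 were alike by this measure. On MUT replicate 2 the genes also scattered most: their interquartile range was 1.13, against 0.36 and 0.31 on the other MUT arrays and 0.08 to 0.09 on the WT arrays. All genes scattered more than the chain on every array, with ranges of 1.47 on MUT replicate 2, 0.66 and 0.63 on MUT replicates 1 and 3, and 0.17 to 0.20 on the WT arrays. MUT replicate 2 was the brightest of the 6 in 47 of 86 genes (54.7%, against 29.8% of all genes) and the dimmest in 26 (30.2%, against 39.1%).

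**Figure D2:**
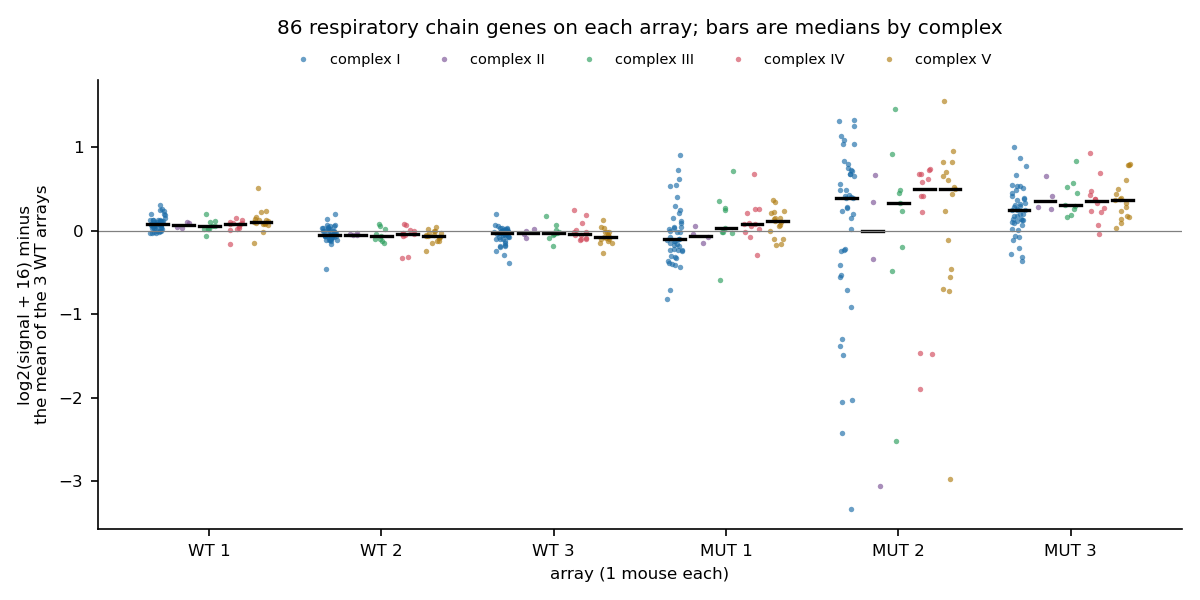
Level of each of the 86 respiratory chain genes on each array (1 mouse each, x axis) relative to the mean of the 3 WT arrays, in log2(signal + 16) (y axis), coloured by complex; bars are the medians of each complex. The WT points lie close to 0, those of MUT 1 around 0.01 and those of MUT 3 around 0.29, and the points of MUT 2 spread from well below −3 to above 1.

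Ndufaf4, a factor that works early in the building of complex I, had the largest difference of the chain without MUT replicate 2. Its signal was 289, 267 and 289 in WT (282 ± 13.0, mean ± SD, n = 3) and 540, 722 and 528 in MUT replicates 1 to 3. All MUT arrays lay above all WT arrays, and MUT replicate 2 was the highest. Without that array Ndufaf4 was 1.85-fold higher (log2 difference 0.89 ± 0.18 SE, 95% interval 0.49 to 1.29, limma adjusted p = 0.0101), and with it the difference was 1.03 (adjusted p = 0.0834). A second probe set of the gene had a difference of 0.74 without MUT replicate 2 (adjusted p = 0.0390).

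Uqcr10, a small subunit of complex III, had signals of 2240, 1755 and 1870 in WT (1955 ± 253 SD, n = 3) and 3192, 5348 and 3482 in MUT replicates 1 to 3. The groups did not overlap. Without MUT replicate 2 the difference was 0.77 ± 0.16 SE, or 1.71-fold (interval 0.41 to 1.14, limma adjusted p = 0.0129), and with 6 arrays 0.999 (adjusted p = 0.0977). Of its other probe sets one also rose without MUT replicate 2 (0.68, adjusted p = 0.0342), and the other had a difference of 0.47 (adjusted p = 0.196).

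Ndufb5, an accessory subunit in the membrane arm of complex I, gave 2060, 2087 and 2106 in WT (2085 ± 23.0 SD, n = 3) and 3054, 4978 and 3577 in MUT replicates 1 to 3. Again no MUT array reached down to the WT range. The difference without MUT replicate 2 was 0.66 ± 0.15 SE, or 1.58-fold (interval 0.33 to 0.99, limma adjusted p = 0.0176), and 0.86 with 6 arrays (adjusted p = 0.108). Its second probe set had a difference of 0.52 and missed the threshold (adjusted p = 0.0593).

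Cox6a2, the form of a complex IV subunit found in heart and skeletal muscle, was dim: 71.4, 71.2 and 70.4 in WT (71.0 ± 0.53 SD, n = 3) and 123, 114 and 150.3 in MUT replicates 1 to 3. All MUT arrays were brighter than all WT arrays, and MUT replicate 2 was the lowest of the MUT arrays. The difference was 0.81 ± 0.21 SE without it, or 1.75-fold (interval 0.33 to 1.28, limma adjusted p = 0.0349), and 0.73 with it (adjusted p = 0.146). A second probe set of Cox6a2 was too dim to test, with a mean signal of 7.02. Acta1, the actin of skeletal muscle, was lower in the same MUT arrays, with signals of 393 to 1043 in WT and 25.7 to 172 in MUT (a difference of −2.23, limma adjusted p = 0.00471, without MUT replicate 2, and of −2.88, adjusted p = 0.0737, with it). The other 2 tested muscle markers did not share its direction. Ckm, the creatine kinase of muscle, was 69.2 to 96.2 in WT and 124.5, 48.8 and 123 in MUT replicates 1 to 3, a difference of 0.50 (adjusted p = 0.185) without MUT replicate 2 and 0.13 with it. Mylpf, a myosin light chain of fast muscle, was 22.8 to 50.1 in WT and 39.1 to 50.1 in MUT, a difference of 0.15 (adjusted p = 0.816) and of 0.23 with 6 arrays. The genes Myh1, Myh2, Myh4, Mb and Tnnt3, which mark muscle fibres, were not bright enough to test on these arrays.

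Ndufb1, another accessory subunit of complex I, is the call that rests most on leaving out 1 array. Its signal was 157, 130 and 90.4 in WT (125 ± 33.2 SD, n = 3), 214 and 261.0 in MUT replicates 1 and 3, and 40.6 in MUT replicate 2, the lowest of the 6. The difference was 0.86 ± 0.25 SE without MUT replicate 2 (interval 0.31 to 1.42, limma adjusted p = 0.0493) and 0.14 with it (adjusted p = 0.921). Without MUT replicate 2 and with quantile normalization the call was lost (adjusted p = 0.0634).

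All 5 calls had the same sign with and without MUT replicate 2. Within the classes of the Pcx control, chosen with these genes known, the difference of Ndufaf4 was 0.87 between MUT replicate 1 and WT replicate 3 and 0.89 between MUT replicate 3 and WT replicates 1 and 2. The same values were 0.53 and 0.78 for Ndufb5, 0.77 and 0.81 for Uqcr10, 0.69 and 0.93 for Cox6a2, and 1.11 and 0.81 for Ndufb1. Over the whole chain the median was 0.05 in the first class (all genes −0.09) and 0.27 in the second (all genes 0.15). With 1 MUT array in each class these are values without a test.

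**Figure D3:**
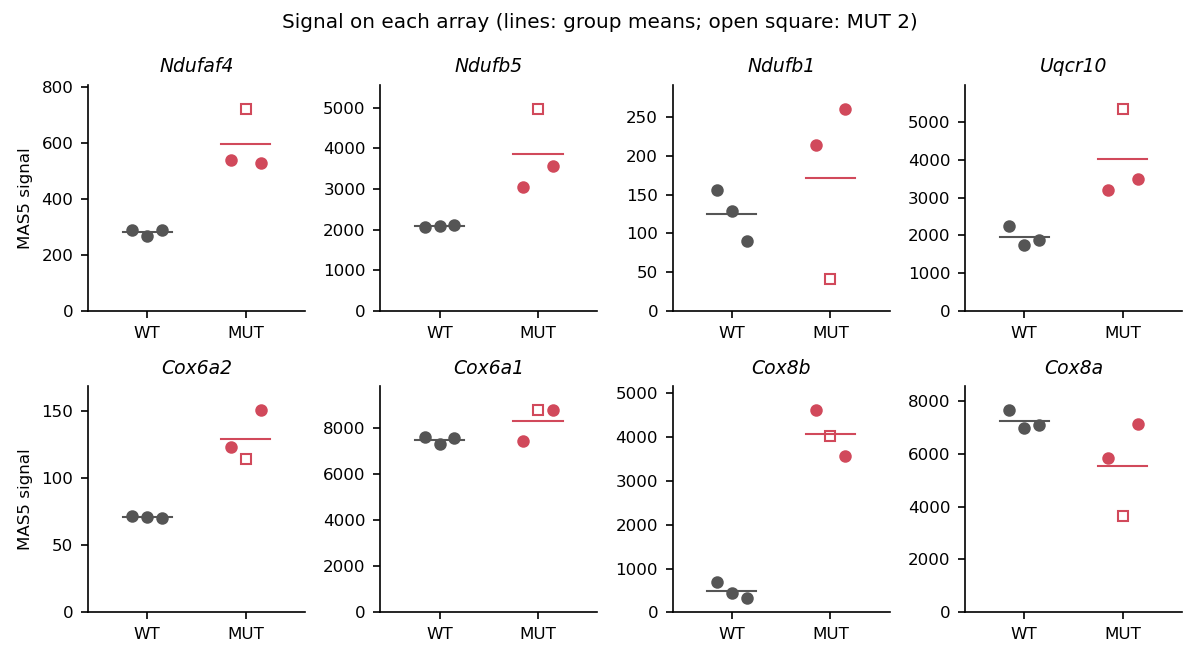
MAS5 signal (linear, y axis from 0) on each array for the 5 genes past the threshold without MUT replicate 2 (Ndufaf4, Ndufb5, Ndufb1, Uqcr10 and Cox6a2) and for Cox6a1, Cox8b and Cox8a; grey points are the 3 WT mice, red points MUT 1 and MUT 3, the open square MUT 2, and lines the means of the 3 arrays of a group. The groups are separate in Ndufaf4, Ndufb5, Uqcr10, Cox6a2 and Cox8b, and MUT 2 lies below all WT arrays in Ndufb1 and Cox8a.

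Promoter sequences were read for the letters of factors that are known for these genes. Nuclear genes of the respiratory chain are known for sites of NRF1, a factor that binds a GC-rich palindrome, and of GABPA and YY1. RefSeq windows (GRCm38.p6) from 250 bases before to 50 after the gene start were matched to 71 of the 87 genes, and Cox6a2 had none. The 250 bases before the start are shown for the called genes Ndufaf4, Ndufb5 and Uqcr10, which differ in whether they hold a searched motif, and for Sdha and Cox6a1, 2 uncalled genes with several NRF1 matches. Capitals mark the letters of a motif on either strand, and each run reads 5′ to 3′ on the strand of the gene.
Ndufaf4, chr4:24897833-24898082, plus strand: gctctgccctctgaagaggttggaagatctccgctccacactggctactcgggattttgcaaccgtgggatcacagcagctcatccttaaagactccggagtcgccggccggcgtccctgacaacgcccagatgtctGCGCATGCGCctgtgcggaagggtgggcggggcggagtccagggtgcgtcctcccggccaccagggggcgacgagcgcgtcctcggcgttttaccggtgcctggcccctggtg
Ndufb5, chr3:32736813-32737062, plus strand: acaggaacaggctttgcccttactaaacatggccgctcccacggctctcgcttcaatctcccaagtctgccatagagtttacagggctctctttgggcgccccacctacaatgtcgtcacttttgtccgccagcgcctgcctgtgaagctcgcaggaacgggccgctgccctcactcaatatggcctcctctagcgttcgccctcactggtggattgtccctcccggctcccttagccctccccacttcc
Uqcr10, chr11:4704345-4704594, minus strand: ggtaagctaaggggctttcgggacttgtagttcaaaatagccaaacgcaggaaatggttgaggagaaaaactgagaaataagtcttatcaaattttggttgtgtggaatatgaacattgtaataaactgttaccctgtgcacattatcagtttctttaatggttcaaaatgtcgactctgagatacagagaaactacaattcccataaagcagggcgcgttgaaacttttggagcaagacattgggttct
Sdha, chr13:74350241-74350490, minus strand: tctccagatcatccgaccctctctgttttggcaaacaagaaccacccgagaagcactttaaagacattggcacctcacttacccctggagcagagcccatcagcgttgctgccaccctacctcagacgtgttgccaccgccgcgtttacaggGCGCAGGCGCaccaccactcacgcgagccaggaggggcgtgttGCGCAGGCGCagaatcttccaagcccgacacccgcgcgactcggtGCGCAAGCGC
Cox6a1, chr5:115348959-115349208, minus strand: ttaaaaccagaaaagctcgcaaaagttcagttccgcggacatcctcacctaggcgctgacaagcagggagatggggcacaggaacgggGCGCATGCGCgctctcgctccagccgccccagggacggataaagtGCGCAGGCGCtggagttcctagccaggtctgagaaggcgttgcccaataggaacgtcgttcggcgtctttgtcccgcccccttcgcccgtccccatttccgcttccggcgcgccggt

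In Ndufaf4 the capitals are a palindromic NRF1 match from −113 to −104, counted from the gene start. Sdha holds 3 matches on the minus strand, the last of which ends at −1, and Cox6a1 holds one at −162 to −153 and another at −117 to −108. The windows of Ndufb5 and Uqcr10 held none of the motifs searched in the bases shown. A match is a string of letters and not a measured binding site, and the lack of one says only that these letters are not in the window.

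The NRF1 letters, GCGC and TGCGC with any 1 base between them and read on both strands, occurred in 16 of 71 member windows (22.5%), in 4.78% of the 27025 RefSeq windows and in 6.60% of the 17491 of protein-coding genes. The YY1 letters AAGATGGC occurred in 9 (12.7%, against 2.88% and 3.23%). The GABPA letters CCGGAAGT were in 4 (5.63%, against 4% and 5.29%), and the letters TCAAGGTCA of ERRA, the estrogen-related receptor, in 2 (2.82%, against 0.407% and 0.332%). The E-box CACGTG was found in 6 (8.45%, against 7.24% and 7.90%). The letters TCACNCCAC, which stand for a sterol response element bound by SREBP, the factor of the transgene, were found in 0 of 71 windows, against 1.22% and 1.17%.

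Medians were also taken over the genes with and without the NRF1 letters. The median without MUT replicate 2 was 0.23 over the 16 genes with the letters and 0.13 over the 54 tested genes without them, and with 6 arrays it was 0.24 and 0.19. One of the 16 and 3 of the 54 were among the called genes. These calls are from the comparison without MUT replicate 2, where 8.04% of all genes were called higher. Both MUT arrays then lay above all WT arrays for 8 of the 16 and 17 of the 54. Of all genes 24.1% did so. These medians and counts are a description, and the differences between the sets were not tested.

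Complex I had 44 tested genes and a median difference of 0.13 with 6 arrays and 0.07 without MUT replicate 2. It had 3 calls in the latter, Ndufaf4, Ndufb5 and Ndufb1, where 8.04% of all genes were called higher. After quantile normalization its median was 0.07 with 6 arrays and turned to −0.02 without MUT replicate 2, beside 0.08 and −0.01 for all genes. MUT lay above WT without overlap for 6 genes (13.6%, against 14.1% of all genes) with 6 arrays and for 10 (22.7%, against 24.1%) without MUT replicate 2, which is near the background. MUT lay below for 1 (2.27%, against 16.3%) and 2 (4.55%, against 22.4%). Its 6 core subunits, most of which carry the flavin or iron-sulfur clusters, had a median of 0.15 without MUT replicate 2 and no call. The interval of all 6 lay within 2-fold. Ndufs1, the largest iron-sulfur subunit, had signals of 1188, 1003 and 1084 in WT and 1076, 2322 and 1459 in MUT replicates 1 to 3. The groups overlapped, and the difference was 0.20 (interval −0.22 to 0.62) without MUT replicate 2 and 0.49 with it.

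Ndufv1, which binds NADH, gave 2671, 2952 and 2422 in WT and 2041, 646 and 2940 in MUT replicates 1 to 3. MUT replicate 2 was far below the rest, and the difference was −0.12 (interval −0.55 to 0.30) without it and −0.76 with it. The other probe sets of Ndufv1 did not share this fall, with 1795 and 1697 on that array and 1657 to 1784 and 1591 to 1744 in WT. Their differences were both −0.04 without MUT replicate 2, and −0.01 and −0.02 with it. Ndufb8, an accessory subunit of the membrane arm, ran from 3595 to 4125 in WT and gave 3070, 4294 and 3699 in MUT replicates 1 to 3, which overlap the WT range. Its difference was −0.19 without MUT replicate 2 (interval −0.53 to 0.15) and −0.07 with it, and it passed the threshold as lower only when quantile normalization was added (−0.29, limma adjusted p = 0.0241).

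The 30 accessory subunits spread on both sides of 0, from −0.57 to 0.86, with a median of 0.07 without MUT replicate 2. Ndufb3 stood lowest: 2745, 2505 and 2639 in WT and 1480, 3097 and 2109 in MUT replicates 1 to 3. MUT replicates 1 and 3 were below all WT arrays and MUT replicate 2 above them. The difference was −0.57 ± 0.18 SE (interval −0.97 to −0.16, limma adjusted p = 0.0725) without MUT replicate 2 and −0.30 with it. Ndufa3 gave 3783 to 4177 in WT and 2926, 2088 and 3414 in MUT replicates 1 to 3, below WT in each, with a difference of −0.32 (adjusted p = 0.198) and of −0.52 with 6 arrays.

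Ndufa6 and Ndufa1, accessory subunits that were among the 14 genes with an unadjusted p under 0.05, had differences of 0.43 and 0.36 without MUT replicate 2 and of 0.73 and 0.58 with it. The 8 assembly factors had a median of −0.05 without MUT replicate 2, so that Ndufaf4 was not typical of them. Ndufaf2, a chaperone of a late step, had a difference of 0.54 (interval 0.05 to 1.02, adjusted p = 0.147) and 0.58 with 6 arrays. Ndufaf6, another assembly factor, had one of −0.34 with a wide interval (−0.94 to 0.25), and of 0.01 with 6 arrays.

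In the probe set taken for each gene, all 4 subunits of complex II had positive differences without MUT replicate 2, where 52.2% of all genes did. None passed the threshold. Relative to the WT mean, their median was −0.06 in MUT replicate 1 and 0.35 in MUT replicate 3, beside −0.11 and 0.16 for all genes. With quantile normalization added, Sdhc turned to −0.02 and Sdhb was 0.001. Sdha, the flavoprotein that oxidises succinate, had signals of 4355, 4084 and 4307 in WT (4248 ± 144 SD, n = 3) and 4412, 6751 and 5694 in MUT replicates 1 to 3. All MUT arrays lay above all WT arrays, MUT replicate 1 only just, and the difference was 0.24 (interval −0.10 to 0.58) without MUT replicate 2 and 0.38 with it. Another bright probe set of Sdha did not share this, with 2580 to 2958 in WT and 1949, 4791 and 2870 in MUT. Its difference was −0.23 without MUT replicate 2 and 0.11 with it, and the groups overlapped. Sdhb, the iron-sulfur subunit, was 3154 to 3606 in WT and 3169, 2634 and 4080 in MUT, a difference of 0.11 (interval −0.25 to 0.46), and of −0.04 with 6 arrays.

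The membrane anchors of complex II parted on MUT replicate 2. Sdhc gave 2609, 2453 and 2517 in WT and 2290, 289 and 3031 in MUT replicates 1 to 3. The value of 289 was the lowest by far, and a second probe set of Sdhc was as low on that array, at −3.09 against the mean of the other MUT arrays on the log2 scale, where the first had −3.12. The difference of Sdhc was 0.06 (interval −0.31 to 0.43) without MUT replicate 2 and −0.98 with it. Sdhd was 2045 to 2275 in WT and 2068, 2709 and 3355 in MUT, a difference of 0.31 (interval −0.16 to 0.77) without MUT replicate 2 and of 0.32 with it.

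Complex III had a median difference of 0.24 with 6 arrays and 0.25 without MUT replicate 2, and MUT lay above WT without overlap for 4 of 9 genes in both (44.4%, against 14.1% and 24.1% of all genes). These 4 were Uqcr10, Uqcrh, Uqcrc2 and Uqcrq. Uqcrh, the hinge protein that helps cytochrome c1 meet cytochrome c, was 2687 to 2811 in WT and 3542, 5250 and 4122 in MUT. Its difference of 0.46 ± 0.14 SE missed the threshold without MUT replicate 2 (interval 0.14 to 0.79, limma adjusted p = 0.0656), and it was 0.62 with 6 arrays (adjusted p = 0.173). Uqcrc2, a core protein, was 2345 to 2873 in WT and 3069, 3576 and 3662 in MUT, a difference of 0.40 (interval 0.03 to 0.76, adjusted p = 0.154), and of 0.43 with 6 arrays.

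The 2 subunits of complex III that carry its metal centres and are encoded here in the nucleus differed little. Cyc1, cytochrome c1, had signals of 3656, 3762 and 3391 in WT and 3552, 2580 and 4024 in MUT replicates 1 to 3, with overlapping groups, and a difference of 0.07 (interval −0.25 to 0.39) without MUT replicate 2 and −0.11 with it. Uqcrfs1, the Rieske iron-sulfur protein, was 2472 to 2857 in WT and 2714, 3105 and 3620 in MUT, a difference of 0.25 (interval −0.13 to 0.63), and of 0.24 with 6 arrays. Uqcrc1, the other core protein, gave 4089, 4004 and 3336 in WT and 2526, 650 and 4661 in MUT replicates 1 to 3, and MUT replicates 1 and 3 fell on either side of WT. Its difference was −0.14 (interval −0.68 to 0.39) without MUT replicate 2 and −0.93 with it.

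Complex IV had a median of 0.37 with 6 arrays and 0.22 without MUT replicate 2, and 6 and 7 of its 12 tested genes had all MUT arrays above WT (50% and 58.3%, against 14.1% and 24.1% of all genes). MUT replicate 2 was the brightest array for 7 of the 12 genes (58.3%, against 29.8% of all genes). The 8 general subunits, present in every tissue, all had positive differences without MUT replicate 2, where 52.2% of all genes did. Their differences ran from 0.11 to 0.34, with every interval within 2-fold and no call. The highest of these, 0.34, was that of Cox7c, whose tested probe set had signals of only 52.2 to 111, close to background. Cox7a2, the general form of subunit 7a, was 7573, 6934 and 6847 in WT (7118 ± 397 SD, n = 3) and 8552, 11410 and 9269 in MUT replicates 1 to 3. The groups did not overlap, and the difference was 0.32 ± 0.12 SE without MUT replicate 2 (interval 0.04 to 0.60, limma adjusted p = 0.131) and 0.44 with it.

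Cox4i1, the general form of subunit 4, gave 6236, 5805 and 5932 in WT and 6361, 2170 and 7067 in MUT replicates 1 to 3. MUT replicates 1 and 3 were above WT and MUT replicate 2 far below, and the difference was 0.16 (interval −0.12 to 0.45) without that array and −0.38 with it. Cox5a and Cox5b, subunits that are a common measure of the complex, had differences of 0.24 (interval −0.12 to 0.60) and 0.21 (interval −0.11 to 0.53), and each had 0.37 with 6 arrays. Cox6a1, the general partner of Cox6a2, was 7609, 7295 and 7571 in WT and 7437, 8776 and 8767 in MUT, overlapping, with a difference of 0.11 (interval −0.18 to 0.40), and of 0.15 with 6 arrays.

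The other tested complex IV genes differed among themselves. They were Cox7a2l and the tissue or condition forms Cox6a2, Cox4i2 and Cox6b2. Cox7a2l, a protein that joins complexes III and IV into larger assemblies, was 1042 to 1481 in WT and 1559, 1747 and 2117 in MUT, above WT in each. Its difference was 0.48 (interval 0.00 to 0.95, limma adjusted p = 0.192) without MUT replicate 2 and 0.46 with it. The groups overlapped in its other 2 probe sets. One of them, at 452 on MUT replicate 2, had differences of 0.39 without that array and −0.35 with it, and the other had 0.30 and 0.28. Cox4i2, the form known from lung and from low oxygen, was dim, at 78.2 to 124 in WT and 80.5, 26.4 and 108 in MUT, a difference of −0.11 (interval −0.67 to 0.45), and of −0.57 with 6 arrays. Cox6b2, a form of testis, was 76.0 to 89.7 in WT and 77.5, 10.5 and 79.9 in MUT, a difference of −0.06 without MUT replicate 2 and −0.67 with it.

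Ndufa4 and Ndufa4l2 are named for complex I, but Ndufa4 is now counted with complex IV. Ndufa4 gave 4428, 4202 and 4432 in WT and 3699, 7362 and 5297 in MUT replicates 1 to 3, on both sides of WT, with a difference of 0.02 (interval −0.36 to 0.41) without MUT replicate 2 and 0.27 with it. Ndufa4l2, its relative that is induced by low oxygen, was 254 to 304 in WT and 432, 13.1 and 211 in MUT, a difference of 0.13 with a wide interval (−0.50 to 0.76), and −1.02 with 6 arrays. Hif1a, the factor of the response to low oxygen, was 967 to 1310 in WT and 1739, 3413 and 2308 in MUT and rose without MUT replicate 2 (0.88 ± 0.20 SE, limma adjusted p = 0.0195), with a difference of 1.14 (adjusted p = 0.113) with 6 arrays.

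Complex V showed a difference between its parts. The 5 subunits of the F1 part, the catalytic head with its central stalk, had a median of 0.07 without MUT replicate 2 and −0.08 with 6 arrays, and the 12 subunits of the outer stalk and the membrane part had medians of 0.30 and 0.35. This difference between the parts was not tested. All 12 of the latter were positive without MUT replicate 2, from 0.00 to 0.57, where 52.2% of all genes were positive. None passed the threshold. With quantile normalization added, Atp5j2 turned to −0.12 and Atp5k to −0.007, and 4 of the 12 were called higher. Atp5a1 and Atp5b, the alpha and beta subunits that form the catalytic ring, had differences of 0.07 (interval −0.26 to 0.40) and 0.08 (interval −0.20 to 0.36) without MUT replicate 2, and the sign turned with 6 arrays, to −0.10 and −0.13.

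Atp5b had signals of 6885, 6853 and 7152 in WT and 6949, 4757 and 7820 in MUT replicates 1 to 3, and Atp5a1 had 6054, 5526 and 5698 in WT and 5372, 4199 and 6810 in MUT. In both the MUT arrays lay on either side of WT, with MUT replicate 2 the lowest. Another bright probe set of Atp5a1 had MUT replicate 2 as the highest array, at 5394. Its difference was −0.04 without that array and 0.21 with it. Of the other part, Atp5j, coupling factor 6 of the outer stalk, had 4048, 3610 and 3628 in WT and 4851, 7316 and 5742 in MUT, all above WT. Its difference of 0.49 ± 0.14 SE missed the threshold without MUT replicate 2 (interval 0.16 to 0.81, limma adjusted p = 0.0556), and it was 0.65 with 6 arrays (adjusted p = 0.153).

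The c ring, which turns as protons pass, is encoded by Atp5g1, Atp5g2 and Atp5g3, whose mature proteins are identical. Atp5g1 was 958, 926 and 811 in WT and 1140, 536 and 1562 in MUT replicates 1 to 3, and its difference of 0.57 (interval 0.14 to 0.996, limma adjusted p = 0.0904) was the largest of complex V without MUT replicate 2, and it was 0.14 with 6 arrays. Atp5g2 was 2447 to 2852 in WT and 2913, 319 and 3430 in MUT, a difference of 0.27 (interval −0.08 to 0.62) without MUT replicate 2 and of −0.81 with it. Atp5g3 was 7517 to 8603 in WT and 9050, 9585 and 9964 in MUT, above WT in each, a difference of 0.22 (interval −0.07 to 0.50), and also of 0.22 with 6 arrays. Atp5g1 and Atp5g2 were lowest on MUT replicate 2 and Atp5g3 was not.

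Several genes were read by more than 1 probe set, which bind different stretches of the same RNA. In 36 genes with at least 2 probe sets of a mean signal over 500, the probe sets of 12 genes disagreed by over 1 on the log2 scale about how MUT replicate 2 stood against the other MUT arrays. None of the 36 did so between MUT replicates 1 and 3. The median range between probe sets of a gene was 0.588 for MUT replicate 2 and 0.127 for MUT replicates 1 and 3. Atp5d, the delta subunit of the F1 part, had the widest range, 3.75, with one probe set at 0.41 and another at −3.34. Over all 159 tested probe sets of the chain, 0 passed the threshold with 6 arrays and 7 were higher without MUT replicate 2, among them 2 each of Ndufaf4 and Uqcr10. These 7 are 4.4% of the chain's probe sets, below the 6.96% of all 27022 tested probe sets called higher in that comparison.

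**Figure D4:**
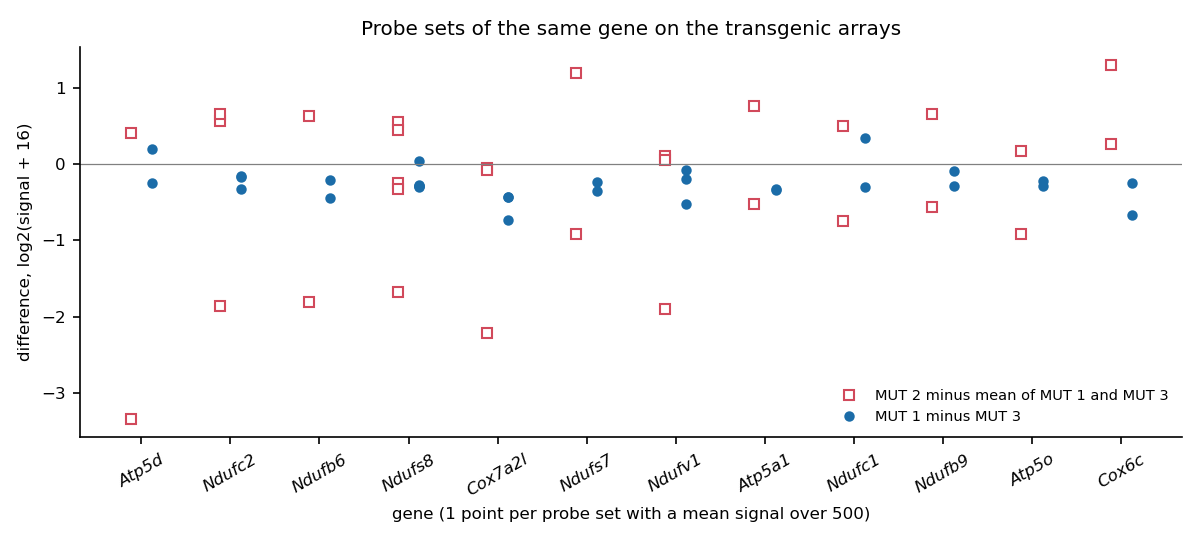
For the 12 genes whose probe sets disagreed most on MUT replicate 2 (x axis), the difference of each probe set between MUT 2 and the mean of MUT 1 and MUT 3 (red squares) and between MUT 1 and MUT 3 (blue points), in log2(signal + 16) (y axis). In Atp5d the squares lie at 0.41 and −3.34 while the blue points of any gene lie within 0.634 of each other.

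Among genes that belong with the chain but not to the list, Cox8b moved most. Cox8b, the form of complex IV subunit 8 found in muscle and brown fat, had signals of 690, 436 and 324 in WT (484 on average) and 4616, 4035 and 3571 in MUT replicates 1 to 3. The groups were far apart, and the gene rose by 3.09 ± 0.31 SE (limma adjusted p = 0.00492) with 6 arrays and by 3.09 ± 0.28 SE without MUT replicate 2. Cox8a, the general form, was 6968 to 7635 in WT and 5834, 3626 and 7130 in MUT, a difference of −0.16 (adjusted p = 0.509) without MUT replicate 2 and −0.44 with it. Cycs, cytochrome c itself, was 4850 to 5487 in WT and 6007, 8461 and 7108 in MUT, above WT in each, with a difference of 0.37 (adjusted p = 0.128), and of 0.49 with 6 arrays.

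As background for the lists from here on, 2.23% of all genes were called higher and 1.54% lower with 6 arrays. Without MUT replicate 2 these shares were 8.04% and 7.33%, and the counts of the lists were not tested against them. The list of other subunits and electron carriers had 11 tested genes, with 1 higher and 0 lower with 6 arrays and 1 higher and 1 lower without MUT replicate 2. The lower one was Gpd2, the mitochondrial glycerol phosphate dehydrogenase that feeds electrons to ubiquinone, at −1.49 ± 0.22 SE (limma adjusted p = 0.00202), where 6 arrays gave −1.36 (adjusted p = 0.0542). Gpd2 was 1068 to 1163 in WT and 298, 507 and 486 in MUT, below WT in each. Of 42 tested assembly factors of all complexes, none passed with 6 arrays and 2 were higher without MUT replicate 2, Ndufaf4 and Sdhaf3, an assembly factor of complex II (0.94 ± 0.19 SE, adjusted p = 0.0114, and 1.38, adjusted p = 0.152, with 6 arrays).

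The regulators of mitochondrial gene expression gave 19 tested genes, none called with 6 arrays, and 1 higher (Hif1a) and 1 lower without MUT replicate 2. The lower one was Nrip1, a corepressor that restrains oxidative genes in fat, which went from 1407 to 2093 in WT to 625, 1266 and 780 in MUT (−1.37 ± 0.22 SE, limma adjusted p = 0.00300, and −1.09, adjusted p = 0.159, with 6 arrays). Ppargc1a, the coactivator PGC-1 alpha, was 61.0 to 90.4 in WT and 106, 71.5 and 94.9 in MUT, a difference of 0.31 (adjusted p = 0.463) without MUT replicate 2 and of 0.17 with it. Nrf1 had a difference of 0.02, Tfam, which packages mitochondrial DNA, of −0.09, and Esrra of 0.11 without MUT replicate 2, none of them called. All 3 turned sign with 6 arrays, to −0.09, 0.13 and −0.56.

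Of 14 enzymes of the citric acid cycle, which supplies the NADH and succinate, 0 were called with 6 arrays and 1 was lower without MUT replicate 2. This was Idh2, the NADP-dependent isocitrate dehydrogenase, at 1553 to 1700 in WT and 519, 229 and 649 in MUT (−1.46 ± 0.17 SE, limma adjusted p = 0.000584, and −1.89, adjusted p = 0.0581, with 6 arrays). Cs, citrate synthase, a common measure of mitochondrial content, was 3496 to 3845 in WT and 4478, 4335 and 5662 in MUT, above WT in each. Its difference of 0.45 missed the threshold (adjusted p = 0.0905), and it was 0.37 with 6 arrays.

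Of 12 mitochondrial carriers, 1 was higher in both comparisons, Slc25a20, which brings acylcarnitines into mitochondria (1.33 ± 0.26 SE, limma adjusted p = 0.0494 with 6 arrays, and 1.08 ± 0.15 SE, adjusted p = 0.00159, without MUT replicate 2). Its call with 6 arrays was lost when any array except MUT replicate 2 was left out, with adjusted p of 0.0640 to 0.223. Of 22 genes of the mitochondrial ribosome and protein import, 0 were called with 6 arrays. Without MUT replicate 2, where 8.04% of all genes were called higher, 2 of the 22 were higher. These were Hspa9, the import motor (0.73 ± 0.15 SE, adjusted p = 0.0135, and 0.45, adjusted p = 0.469, with 6 arrays), and Mrpl16, a ribosomal protein (0.70 ± 0.18 SE, adjusted p = 0.0344, and 0.60, adjusted p = 0.265, with 6 arrays). The medians of the 6 lists without MUT replicate 2 were 0.37 for other subunits and carriers of electrons, 0.10 for assembly factors, 0.04 for regulators, 0.14 for the citric acid cycle, 0.35 for membrane carriers and 0.16 for ribosome and import, beside 0.14 for the chain and 0.02 for all genes.

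The signals of several cell type markers also differed between the groups. Adipoq, Lep, Lipe and other white fat markers, 10 tested, summed to signals of 83255 to 91245 in WT and 44112 to 63237 in MUT. Of the 10, 2 were lower with 6 arrays and 6 without MUT replicate 2. Fabp4 and Lpl overlapped between the groups, with differences of −0.0027 and −0.0035 without MUT replicate 2 and 0.0015 and −0.0032 with it. The 12 macrophage markers summed to 19941 to 23988 in WT and 30877 to 41745 in MUT, with 2 higher with 6 arrays and 6 without MUT replicate 2. The 8 endothelial markers summed to 8258 to 9405 in WT and 2068 to 5988 in MUT, with 0 called with 6 arrays and 5 lower without MUT replicate 2. Emcn overlapped between the groups and had a positive difference of 0.19 without MUT replicate 2, and −0.37 with it.

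The 7 tested brown fat markers summed to 1288 to 1625 in WT and 4981 to 6082 in MUT, in which Cox8b made up most of the MUT sums, with 1 higher with 6 arrays and 2 (Cox8b and Cidea) without MUT replicate 2. Ucp1, which defines brown fat cells, had signals of 2.5 to 7.1 on all 6 arrays and was too dim to test. Cox7a1, the muscle and brown fat form of subunit 7a, was 81.3 to 148 in WT and 139, 133 and 168 in MUT, a difference of 0.51 (limma adjusted p = 0.267) without MUT replicate 2 and 0.45 with it. The 4 tested muscle markers, Cox6a2 among them, summed to 557 to 1233 in WT and 239 to 459 in MUT. Of these, Acta1 was lower without MUT replicate 2, and the other 3 had positive differences, with a median of the 4 of 0.32. The 4 tested markers of testis and epididymis, with 0 called, summed to 194 to 264 in WT and 143 to 283 in MUT, and the 1 tested marker of kidney or liver to 172 to 220.2 and 125 to 167. The part of these cell types in the values of the chain was not tested, and in pieces of whole tissue fewer cells of a type and less RNA per cell cannot be told apart.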

How the data were processed

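RNA of epididymal white fat from 6 male mice, 3 WT and 3 MUT, was measured on 1 array per mouse. The authors deposited 1 linear intensity (MAS5 signal) per probe set and array, per the submitters' processing notes. The sources used here give no MAS5 version, scaling target or detection calls, so no bound was set on dim values. There are 0 columns of other samples. The number of arrays limits the precision. Since each array is another animal, p-values reflect variation among mice as well as handling. The controls were litter-matched, but the labels do not tie replicate numbers to litters.

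Of 45101 probe sets, 34958 have 1 symbol in the platform annotation, 932 have several and 9211 none; 10 probe sets with several symbols, a chain symbol among them, were left out. Among the chain's probe sets, 27 are of the _x_at and 19 of the _s_at type, which can read related transcripts or pseudogenes, and values of genes with close copies are uncertain for that reason. The 64 control probe sets and then the 40% of the rest with the lowest mean log2 value over 6 arrays were left out, which left 27022. The log2 of signal + 16 was fitted with limma 3.58.1 in R 4.3.3 (lmFit, eBayes with trend = TRUE, two-sided, 4 residual degrees of freedom before moderation with 6 arrays), with Benjamini-Hochberg adjustment over all tested probe sets and a threshold of 0.05; all adjusted p-values are from it. The offset of 16 makes changes of dim genes look smaller. For each gene the tested probe set with the highest mean log2 value over 6 arrays was taken. Intervals are limma's at 95%. The fit was tested on simulated data.

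Named genes were, in each comparison, members past the threshold (up to 5 per complex with 6 arrays, up to 3 per complex without MUT replicate 2), 23 fixed members with well-known roles, and up to 3 called genes of each pathway list with 6 arrays; all others were named after their values were seen. The members, lists, markers and motifs were chosen with earlier results of these data known. Promoter windows were searched with Python 3.11.15 and pandas 2.3.3. The closing section gives the alternatives tried.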

Additional observations from a re-analysis of the deposited data

How the results depend on the processing

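With 6 arrays the count of respiratory chain genes called stayed at 0 in either direction with an offset of 1 or 64, no filter or a filter of 60%, quantile normalization, median centring, eBayes without trend, the mean over probe sets of a gene, and without any one array other than MUT replicate 2. Leaving out 1 array at a time gave 0 to 5 genes higher (complex I 0 to 3, III 0 to 1, IV 0 to 1), the highest without MUT replicate 2. Array weights, which gave that array 0.0995, called 6 higher (complex I 2, III 2, IV 1, V 1), 4 of them among the 5 of the comparison without it (6.98% of the chain, against 8.76% of all genes). Leaving it out together with quantile normalization called 11 higher (I 4, III 2, IV 1, V 4) and 4 lower, all of complex I (Ndufa3, Ndufa7, Ndufb3 and Ndufb8); 4 of the 5 were among the 11, and Ndufb1 was not. Of all genes 10.8% were then higher and 12% lower, against 12.8% and 4.65% of the chain. With the Pcx class as a block, chosen after seeing the data, it called 11 higher (I 5, III 2, IV 1, V 3) with all of the 5 among them, and 1 lower, Ndufb3 of complex I (12.8% and 1.16% of the chain, against 13.6% and 10.9% of all genes). Median centring raised the median of all genes to 0.19 and that of the chain to 0.41 (I 0.36, II 0.37, III 0.47, IV 0.59, V 0.45); the median of complex IV was 0.24 after quantile normalization and 0.12 with that and without MUT replicate 2. Leaving out 1 array at a time gave medians of 0.14 to 0.31 for the chain, and 0.22 to 0.52 for complex IV, with the lowest without MUT replicate 2 and the highest without MUT replicate 1; that of complex II was −0.03 without MUT replicate 3, against 0.14. For 29 named genes, 456 of 521 values under an alternative kept their direction and side of the threshold, 19 newly passed it, 10 no longer did (all Slc25a20), and 36, in 11 genes that were called in neither setting, changed sign (Ndufb1, Ndufb8, Ndufa4, Ndufa4l2, Sdhb, Sdhc, Cyc1, Cox4i1, Cox4i2, Atp5a1 and Atp5b). The cause was not tested. Replicate numbers are not taken as pairs, since the labels do not tie them to litters. Deviations from the group means of arrays with the same number had r = −0.13, 0.02 and −0.02. With 3 arrays per group, the scattered MUT replicate 2 among them, these values cannot show whether litters were shared. With the replicate block 0 chain genes were called. Of all genes 129 were then higher and 79 lower, against 292 and 202 without the block. Dim members (Cox6a2, Cox7c, Ndufb4, Cox4i2 and Cox6b2) have signals close to background, and no detection calls were used.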
